A study of Arabidopsis thaliana with 2 samples.

Results

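Trehalose-phosphate synthase (TPS) genes and a pair of classic sugar starvation genes were examined in whole seedlings of Arabidopsis thaliana. The members were chosen by name, as 10 listed loci of the deposited table: the class I gene TPS1 (AT1G78580), the class II genes TPS5 (AT4G17770), TPS6 (AT1G68020), TPS7 (AT1G06410), TPS8 (AT1G70290), TPS9 (AT1G23870), TPS10 (AT1G60140) and TPS11 (AT2G18700), and the dark-inducible genes SEN1 (AT4G35770) and DIN10 (AT5G20250). All 10 had at least 1 read, out of 21825 loci in the table. A level filter of a mean RPKM (counted reads divided by transcript length and library total) of 1 or more kept 7 of them, and TPS6, SEN1 and DIN10 did not pass it.

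The study compared 1 RNA-seq library of wild-type Columbia (Col) seedlings with 1 library of a line that overexpresses ARF18, an auxin response factor. The line is named 35S-ARF18-OE-2, after the 35S promoter of a plant virus, which is active in most tissues, and it stands for a single overexpression line. Both groups shared the Col ecotype and the growth conditions, which the labels give as 4 days of dark and 7 days of white light, beside an age of 7 days. The labels do not say whether RNA of several plants was pooled. The question addressed is which transcripts change when ARF18 is raised. Since neither genotype had a second library, nothing could be tested across plants, and all intervals below are 95% counting intervals that hold no spread between plants.

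Trehalose 6-phosphate, the product of TPS enzymes, is present in trace amounts and tracks sucrose in plant cells. It restrains the kinase SnRK1, which turns on starvation genes when sugar or light is short. TPS1 is the main active synthase and is needed for embryo growth and flowering. Class II proteins join a TPS-like to a phosphatase-like domain, are not known to make the sugar phosphate at a comparable rate, and can bind SnRK1. Their transcripts are known to respond to sugar: TPS5 is raised by it, and TPS8 to TPS11 are raised when it is short. SEN1 and DIN10, a raffinose synthase family gene, are textbook transcripts of darkness, senescence and sugar depletion.

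The libraries held 7059226 counted reads in wild type against 6824188 in the overexpression line. ARF18 had 97 counts against 472, a ratio of 5.03 (4.04 to 6.33) after scaling to these totals. Of the markers chosen for whole seedlings, the 4 leaf genes had a summed RPKM of 8107 in wild type against 9279 in the overexpression library, and the 4 root genes 10293 and 8608. The root sum came almost wholly from PYK10, a beta-glucosidase of root endoplasmic reticulum bodies, at an RPKM of 10247 and 8523. The other root genes, TIP2;3, EXPA7 and CASP2, had count ratios of 2.74, 1.61 and 1.70. Of the leaf genes RBCS1A, LHCB1.3 and CA1 had ratios of 1.202, 1.14 and 1.07, and LHCA1 had 1 count in wild type against 0 in the overexpression library. Divided by the median ratio of expressed genes of like transcript length, the ratios of RBCS1A, LHCB1.3 and CA1 were 1.02, 0.968 and 0.996. Those of TIP2;3, EXPA7, CASP2 and PYK10 were 2.37, 1.37, 1.41 and 0.857. None of 4 seed storage genes had a value here. The part of tissue shares in the values below was not tested, and in whole seedlings fewer cells of a type and less RNA per cell cannot be told apart.

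The deposited table counts reads per transcript model, so the sequences at which models of SEN1 and TPS6 part are shown first. SEN1 models part at the end of the fourth exon, on the plus strand of chromosome 4 in the TAIR 10.1 annotation of RefSeq. Each window below starts at base 16945814 and runs for 30 bases of the spliced transcript, in lower case where the models are alike and in capitals from the first base at which they differ. Model 1 splices at the upstream site, model 3 a few bases later, and model 2 reads on into the intron.
SEN1 model 1: gatcttctcactgctgGCTTCACGGCGATC
SEN1 model 2: gatcttctcactgctgTATGTGTGTAATAT
SEN1 model 3: gatcttctcactgctgTATGGCTTCACGGC
TPS6 models part at an intron that model 1 keeps and model 2 removes. These windows start at base 25499499 on the plus strand of chromosome 1, with capitals as above.
TPS6 model 1: tggctattttctgaggTATTCAACCAAAAC
TPS6 model 2: tggctattttctgaggCTAAGGAAGGCAGT

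Very few reads were assigned to either starvation gene. SEN1 had 1 count in wild type, on model 2, and the overexpression library also had 1, on model 1. DIN10 had 3 counts in wild type against 2 in the overexpression library, all on its models 3 and 4, with RPKM values summing to 0.151 and 0.105. The count ratio of DIN10 was 0.690 with an interval of 0.0576 to 6.02, and that of SEN1 spanned 0.0132 to 81.2, so no difference was detectable at this depth for either gene. TPS6, known for a role in cell shape, had 9 counts in wild type against 4 in the overexpression library, all on model 2. Its RPKM was 0.437 and 0.201, and its ratio of 0.460 had an interval of 0.103 to 1.65, which spans 1. TPS6 (chr1:25496928-25500584) and DIN10 (chr5:6833564-6836862) each have an overlapping gene on the opposite strand, AT1G68030 and AT5G20260, while SEN1 (chr4:16944878-16946266) has none, all 3 lying on the plus strand in TAIR 10.1.

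Low counts went with the highest model number listed for a locus in the deposited table, which is not the number of models annotated. Among nuclear loci whose highest listed model number was 1, the median count over both libraries was 114. It was 18 for the 2350 loci numbered up to 2, 10 for the 480 loci numbered up to 3, and 8 for the 199 loci numbered 4 or more. TPS6 and SEN1 are numbered up to 2 and DIN10 up to 4, whereas the other 7 TPS genes are numbered 1. LHCA1, the leaf marker with 1 count in all, is numbered up to 4. A total of 13 counts or fewer, the highest of the 3 low genes, was found in 23.0% of loci numbered 1 and in 43.1%, 59.4% and 62.3% of the other classes. Of the 50-base stretches of SEN1 model 1 and model 2 in the annotation, 9.13% and 15.01% lie in no other model up to the highest listed number. For TPS6 model 2 the share was 12.6%, and for DIN10 models 3 and 4 it was 5.04% and 1.81%. For the 7 well-counted TPS genes the deposited table lists no second model, although TAIR 10.1 annotates further ones for TPS1, TPS5, TPS7, TPS8 and TPS10, and no stretch of any of the 10 genes occurred in the annotated transcripts of another locus on the same strand. How reads shared between models were treated is not given in the sources used here, and the part of this in the low counts was not tested. With that unknown, the values of SEN1, DIN10 and TPS6 are those of the listed models and cannot be taken as levels of these genes as a whole. Whether the genes themselves were low was not tested.

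**Figure D1:**
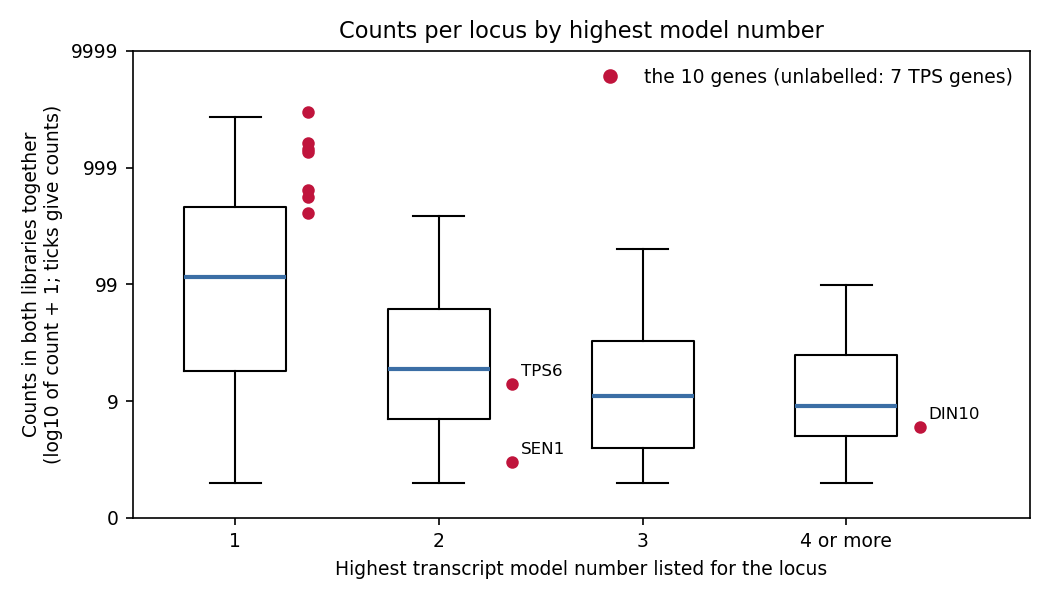
Counts per nuclear locus in both libraries together (vertical axis, log10 of count + 1) by the highest transcript model number listed (horizontal axis); boxes show quartiles with the median in blue, and whiskers the 5th and 95th percentiles. The 7 TPS genes numbered 1 lie above the median of 114 of their class, while TPS6, SEN1 and DIN10 lie in classes with medians of 18, 18 and 8, and below those medians.

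Across the 7 TPS genes that passed the filter, levels differed widely and kept nearly the same order in both libraries. TPS10 was highest, at an RPKM of 73.5 in wild type against 63.1 in the overexpression library. TPS9 followed at 43.9 and 34.5. TPS5 and TPS7 came next, at 36.1 and 34.5 in wild type, a pair whose ratio of 1.05 (0.948 to 1.16) spanned 1. In the overexpression library TPS7 stood before TPS5, at 30.9 and 28.1, again with an interval of the ratio (0.980 to 1.23) that spanned 1. TPS11 and TPS1 were close, at 16.4 each in wild type and at 12.1 and 12.3 in the overexpression library, and their order did not hold beyond counting error in either. TPS8 was lowest at 11.2 and 8.25, and TPS1 stood above it in wild type by a ratio of 1.46 (1.24 to 1.73). The other steps between neighbours had intervals that did not span 1 in either library.

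TPS10 alone supplied 31.6% of the summed RPKM of the 8 TPS genes in wild type against 33.3% in the overexpression library. TPS1, the active synthase, supplied 7.05% and 6.47%. TPS7 moved most among the others, from 14.8% to 16.3%. The share of each of the 8 genes differed by less than 2 percentage points between the libraries.

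**Figure D2:**
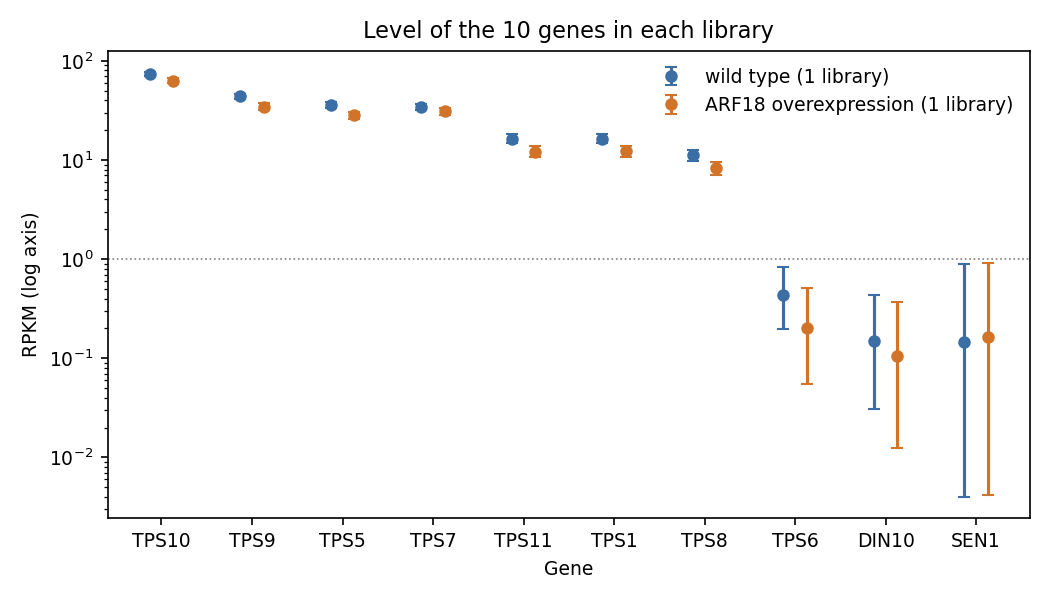
RPKM (log axis) of the 10 genes in the wild-type library (blue) and the ARF18 overexpression library (orange), ordered by wild-type level, with exact Poisson 95% intervals of the counts and a dotted line at an RPKM of 1. The 7 TPS genes at the left lie between 8.25 and 73.5, with the overexpression value below the wild-type value in each, and TPS6, DIN10 and SEN1 lie below the filter.

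All 7 of these TPS genes were lower in the overexpression library, and none was 2-fold apart. Together they had 5033 counts in wild type against 3975 in the overexpression library, a ratio of 0.817 (0.784 to 0.852). On the scale of log2 of (RPKM + 1), overexpression over wild type, their median was -0.35, with a range of -0.41 to -0.15, against 0.03 over all 15083 expressed nuclear genes. Of those 15083 genes 46.2% were below 0, as were 86.4% of the other expressed genes within the length range of the 7 TPS genes. A 2-fold higher value was found in 1.25% of the 15083 genes and a 2-fold lower one in 0.663%. Counting intervals of the ratio lay wholly below 1 for 7 of 7 genes, and such intervals were found in 15.6% of expressed genes (18.7% lay wholly above 1). Genes with more reads have narrower intervals, which leave out 1 more readily. The 7 genes had 239 to 1633 counts in wild type. The median was 108 over all expressed genes and 166.5 over the others of the same length range. The shares given here and below are not matched for read depth.

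TPS1, which lies on the minus strand of chromosome 1 from 29552340 to 29560912, had 369 counts in wild type against 267 in the overexpression library. The ratio was 0.748 (0.637 to 0.879) and the log2 ratio -0.39. TPS1 has an antisense long non-coding RNA gene, AT1G09827, and the gene AT1G78570 overlapping it on the other strand, and since strandedness is not given in the sources used here, reads of these partners cannot be told apart from its own.

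Among the class II genes, TPS11, a gene with a known role in defence against aphids, had the lowest log2 ratio at -0.41, with 325 counts in wild type against 232 in the overexpression library, a ratio of 0.738 (0.621 to 0.877). TPS8 had 239 counts and 170, a ratio of 0.736 (0.601 to 0.899). Both belong to the group known to be raised when sugar is short. TPS9, of the same group, had 921 counts and 700, a ratio of 0.786 (0.712 to 0.868). TPS5, the sugar-raised gene, had 778 counts and 586, a ratio of 0.779 (0.699 to 0.868), and its interval overlapped those of the genes raised when sugar is short. TPS5 also has an overlapping gene on the opposite strand, AT4G17780. In TAIR 10.1, TPS11 lies at chr2:8108898-8112010 and TPS5 at chr4:9876172-9880386, on the plus strand. TPS8 lies at chr1:26470795-26474833 on the minus strand and TPS9 at chr1:8432179-8435656 on the plus strand.

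TPS10 and TPS7 had the ratios closest to 1. TPS10 lies at chr1:22176934-22181740 on the minus strand and TPS7 at chr1:1954674-1958866 on the plus strand. TPS10, which also belongs to the group known to be raised when sugar is short, had a ratio of 0.858 (0.798 to 0.923). Its counts were 1633 in wild type against 1355 in the overexpression library. TPS7 had 768 and 665, a ratio of 0.896 (0.806 to 0.995), whose upper limit lies just under 1. In the authors' deposited table, whose test compares the reads of these 2 libraries, TPS9, TPS5, TPS10, TPS1, TPS11 and TPS8 were lower at FDR values of 2.54e-05, 7.4e-05, 0.00042, 0.00307, 0.00397 and 0.0171, and TPS7 had an FDR of 0.172. Of all transcript models in the authors' deposited table, 7.17% were lower at an FDR of 0.05 or less, a share not matched for read depth.

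**Figure D3:**
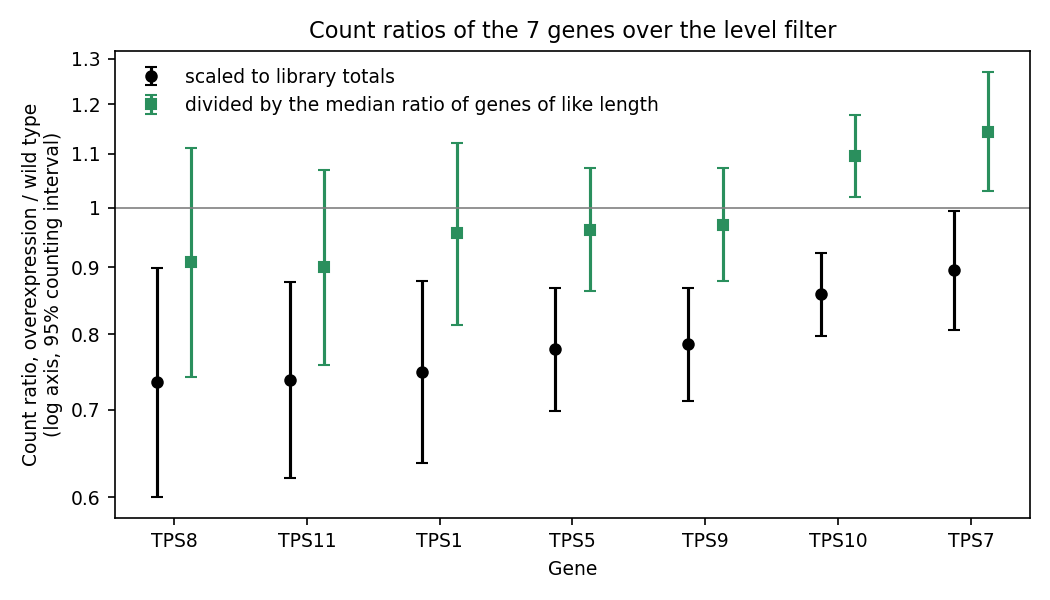
Count ratio of the overexpression over the wild-type library (log axis) for the 7 TPS genes that passed the level filter, with 95% counting intervals, scaled to library totals (black circles) and after division by the median ratio of expressed genes of like transcript length (green squares). All 7 black intervals lie below 1, and after the division 5 span 1 while those of TPS10 and TPS7 lie above it.

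The ratios have to be read beside transcript length, since TPS transcripts are long. The 7 genes have models of 2800 to 3190 bases in the deposited table. Across expressed genes the log2 ratio went down with length, from a median of 0.34 in the shortest of 10 equal classes to -0.31 in the longest, with Spearman's rho of -0.52 over genes, which are not independent replicates. The 426 other expressed genes within the length range of the TPS genes had a median log2 ratio of -0.26, and 368 of them were below 0. Of these genes 48.4% had a counting interval wholly below 1 and 0.469% wholly above. TPS11 had the lowest value of the TPS genes, and 120 of the 426 genes were lower still. TPS7 had the highest, with 292 genes lower, so all 7 TPS genes lay inside the bulk of genes of their length.

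After the median of genes of like length was subtracted, the TPS genes had a median log2 ratio of -0.08, with a range of -0.14 to 0.14. Subtracting a median by GC content as well gave -0.10. TPS11 went from -0.41 to -0.14, TPS8 from -0.40 to -0.13, TPS1 from -0.39 to -0.09, TPS5 from -0.35 to -0.08 and TPS9 from -0.34 to -0.07. TPS10 and TPS7 turned from -0.22 and -0.15 to 0.08 and 0.14. Counting intervals adjusted in this way lay wholly below 1 for none of the 7 genes and wholly above 1 for TPS10, at 1.096 (1.02 to 1.18), and TPS7, at 1.14 (1.03 to 1.27). Over all expressed genes 12.5% of such adjusted intervals lay below 1 and 10.9% above, again not matched for read depth. The lower values of the 7 genes were thus of the size seen in other long transcripts of the same libraries. With 1 library of each genotype, a relation to length that comes with the genotype and one that comes with the library cannot be told apart.

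**Figure D4:**
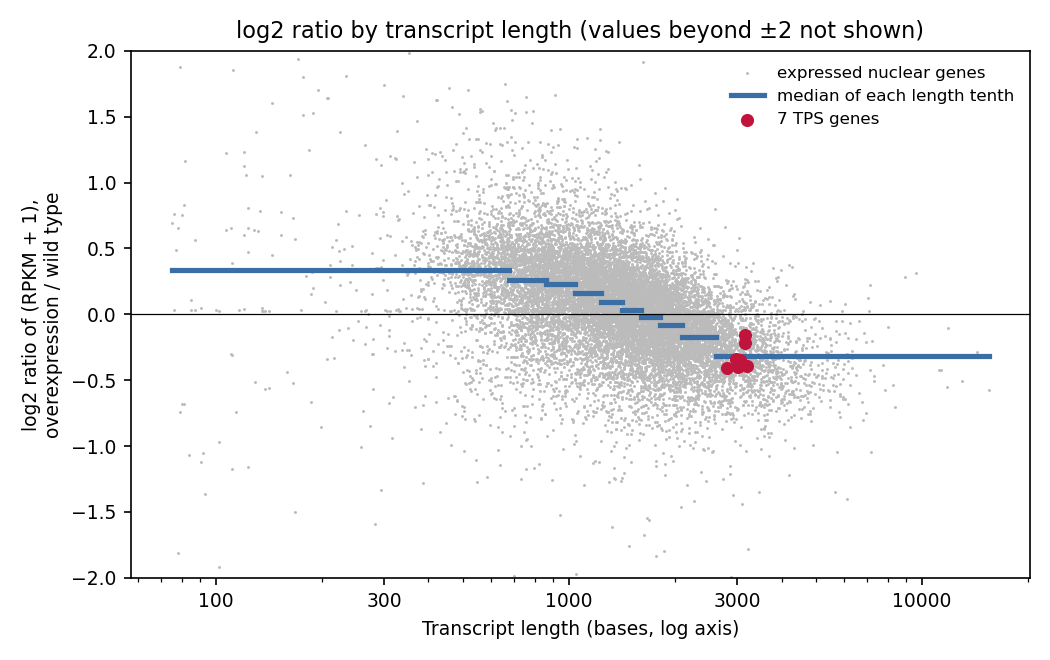
The log2 ratio of (RPKM + 1), overexpression over wild type, against transcript length in bases (log axis) for the expressed nuclear genes (grey), with the median of each of 10 equal length classes (blue lines) and the 7 TPS genes (red). The class medians go from 0.34 to -0.31, and the TPS genes lie between -0.41 and -0.15 around the line of the longest class.

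Promoter sequence was searched as a description, in the 300 bases before the annotated start of each gene's lowest-numbered model, on both strands. For TPS1, TPS6 and TPS10 that model starts inside the annotated gene, so their windows lie within the gene bounds. The window of SEN1 overlaps the gene AT4G35760. The letters TATCCA, known as an element of sugar-starved alpha-amylase genes of rice, occurred in 1 of the 10 promoters, that of TPS11, against 16.0% of 27442 protein-coding promoters. The auxin response element TGTCTC occurred in 1, that of TPS9, against 13.2%. The letters CACGTG, the G-box bound by many bZIP factors, and TGTCGG, a further auxin response element, occurred in none of the 10 windows, against 7.22% and 4.95% of promoters. No match overlapped another. The promoters that held a match are shown with it in capitals. That of TPS11 is chr2:8108598-8108897 and that of TPS9 is chr1:8431879-8432178, both on the plus strand in TAIR 10.1. TPS11 had the lowest log2 ratio of the 10 genes, at -0.41, just under TPS8 without a match at -0.40, and TPS9 had -0.34.
TPS11 promoter: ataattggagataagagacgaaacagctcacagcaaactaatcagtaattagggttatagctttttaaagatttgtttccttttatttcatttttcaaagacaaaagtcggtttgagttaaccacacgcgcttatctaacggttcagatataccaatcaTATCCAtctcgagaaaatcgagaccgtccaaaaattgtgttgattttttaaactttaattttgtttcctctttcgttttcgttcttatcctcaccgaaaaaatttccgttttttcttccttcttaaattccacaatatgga
TPS9 promoter: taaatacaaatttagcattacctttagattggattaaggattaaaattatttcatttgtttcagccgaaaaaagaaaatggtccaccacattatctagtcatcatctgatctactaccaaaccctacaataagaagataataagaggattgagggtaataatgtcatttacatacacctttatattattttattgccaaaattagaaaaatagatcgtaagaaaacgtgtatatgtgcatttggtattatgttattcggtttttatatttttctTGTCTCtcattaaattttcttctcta

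Trehalose-phosphate phosphatases (TPP) remove the phosphate of trehalose 6-phosphate. Of 11 listed genes, the TPP genes and the trehalase gene TRE1, 8 had reads and 4 passed the level filter. None of the 4 had a counting interval wholly below or above 1, before or after length adjustment. Such intervals lay below 1 in 15.6% of expressed genes and above it in 18.7%, and in 12.5% and 10.9% adjusted. The 4 TPP genes had a median log2 ratio of 0.12, or 0.08 with the length median subtracted, and a median length of 1342 bases. TPPB had 253 counts in wild type against 261 in the overexpression library, a ratio of 1.07 (0.894 to 1.27). TPPI had 265 and 286, a ratio of 1.12 (0.941 to 1.32). TPPH and TPPE had ratios of 1.196 (0.725 to 1.98) and 0.908 (0.564 to 1.46). TRE1 had 12 and 11 counts. Of the other class I genes TPS4 had 1 count in wild type against 0 in the overexpression library.

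The SnRK1 kinase, held back by trehalose 6-phosphate, had 5 of 10 listed genes over the filter. None had an interval wholly on a side of 1, and the median log2 ratio was -0.02, or 0.02 with the length median subtracted. For all expressed genes 15.6% of intervals lay wholly below 1 and 18.7% wholly above, and 12.5% and 10.9% adjusted. The regulatory subunit gene SNF4 had 658 and 574 counts, a ratio of 0.902 (0.805 to 1.01). The beta subunit genes KINBETA1 and KINBETA3 had ratios of 0.733 (0.458 to 1.16) and 1.06 (0.842 to 1.34). The catalytic subunit gene KIN10 had only 18 and 17 counts, a ratio of 0.977 (0.473 to 2.01), and GRIK1, an upstream kinase gene, 1 and 0. Of sugar sensing genes 6 of 8 passed the filter, and 1 of these 6 had an interval wholly below 1, beside the 15.6% of expressed genes. That gene was RAPTOR1B, a subunit of the TOR kinase complex, at a ratio of 0.654 (0.593 to 0.722). Its transcript of 4819 bases is longer than those of TPS genes, and its log2 ratio was -0.59, or -0.16 with the length median subtracted. Its adjusted interval of 0.838 to 1.02 spanned 1, which left no sugar sensing gene with an interval on a side of 1. The hexokinase genes HXK2 and HXK3 and the hexokinase-like HKL1 had intervals that spanned 1. The bZIP factors that act downstream of SnRK1 had 1 of 9 genes over the filter, BZIP9 at a ratio of 1.03 (0.817 to 1.29), and BZIP44 had 0 and 2 counts.

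Other genes known to be induced by starvation or darkness were also listed, and their values do not stand in for those of SEN1 and DIN10. Of 19 listed, 17 had reads and 13 passed the filter. Of these 13, 7 had a counting interval wholly above 1 and 2 wholly below, and with the length adjustment 4 and 1. Among all expressed genes 18.7% lay above 1 and 15.6% below, and 10.9% and 12.5% adjusted. Their median log2 ratio was 0.22, or 0.14 adjusted, against -0.35 and -0.08 for the TPS genes. DRM2, a dormancy-associated gene, had 573 counts in wild type against 903 in the overexpression library, a ratio of 1.63 (1.47 to 1.81), and its log2 ratio of 0.70 became 0.39 adjusted. AT3G15450, used as a SnRK1 marker, had 91 and 128 counts, a ratio of 1.46 (1.104 to 1.93), with an adjusted interval (0.945 to 1.65) that spanned 1. GDH2, a glutamate dehydrogenase, was lower at 28 and 12 counts, a ratio of 0.443 (0.205 to 0.9002). ETFQO, of the breakdown of branched-chain amino acids, had a ratio of 0.713 (0.555 to 0.914), with an adjusted interval (0.631 to 1.04) that spanned 1. GDH2 is numbered up to model 3, and DRM2 and AT3G15450 up to 2, the class of TPS6 and SEN1, so their counts too are those of the listed models and may not give the whole gene.

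Genes of sugar storage and transport forms went in several directions. In the raffinose family, to which DIN10 belongs, 7 of 8 genes passed the filter, with 3 intervals wholly below 1 and 1 above, and 2 and 2 with the length adjustment. RS5, a raffinose synthase chosen after its values were seen, turned from an interval below 1 (0.827 to 0.983) to one above it (1.02 to 1.21). Over all expressed genes the shares were 15.6% below and 18.7% above, and 12.5% and 10.9% adjusted. The galactinol synthase genes, which make the donor for raffinose, parted: GOLS1 had 1258 counts in wild type against 687 in the overexpression library, a ratio of 0.565 (0.514 to 0.620). GOLS4 had 53 and 21, a ratio of 0.410 (0.235 to 0.691), and GOLS3 had 202 and 268, a ratio of 1.37 (1.14 to 1.66). Their transcripts have 1301 to 1355 bases, and their log2 ratios of -0.82, -1.002 and 0.44 were -0.90, -1.09 and 0.38 with the length median subtracted. The remaining expressed galactinol synthase gene, GOLS2, was chosen after its values were seen. GOLS2 had 117 and 112 counts, a ratio of 0.990 (0.757 to 1.29), which spanned 1. RS4, of the raffinose and stachyose step, had a ratio of 1.25 (0.703 to 2.24).

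Sucrose phosphate synthase genes, of the main route to sucrose, had lower ratios than the TPS genes. SPS1F had 1300 counts and 728, a ratio of 0.579 (0.528 to 0.635), and SPS2F 565 and 287, a ratio of 0.525 (0.454 to 0.607). Their transcripts of 3569 and 3576 bases are longer still, and their log2 ratios of -0.77 and -0.87 were -0.42 and -0.52 adjusted. They were the 2 of 5 expressed sucrose genes with an interval below 1, both before and after adjustment. Intervals below 1 were found in 15.6% of all expressed genes, and in 12.5% adjusted. The sucrose synthase genes SUS3 and SUS5 had intervals that spanned 1, and SUS6 had 0 and 4 counts.

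Of the starch genes, 9 of 10 expressed synthesis genes and 5 of 7 expressed breakdown genes had log2 ratios below 0. Their median lengths fall in the class of 2094 to 2610 bases, in which 78.8% of expressed genes were below 0. Of the 10 expressed synthesis genes, 5 had an interval wholly below 1 and 1 above, and 4 and 1 after adjustment, with a median log2 ratio of -0.25, or -0.17 adjusted. The shares over all expressed genes were 15.6% and 18.7%, and 12.5% and 10.9% adjusted. The granule-bound starch synthase GBSS1 had 76 and 41 counts, a ratio of 0.558 (0.372 to 0.826). The starch synthase SS2 had a ratio of 0.618 (0.521 to 0.732), PGM1 0.722 (0.614 to 0.848) and APS1, the small subunit of ADP-glucose pyrophosphorylase, 0.782 (0.724 to 0.845). SS1 had 0 and 2 counts and SS3 1 and 0. Of 7 expressed breakdown genes, 3 had an interval below 1 and none above, and 1 and none after adjustment. GWD1, DPE2 and BAM1 had ratios of 0.692, 0.724 and 0.784, with log2 ratios of -0.49, -0.45 and -0.34 that became -0.06, -0.16 and -0.22 adjusted. The maltose exporter gene MEX1 had a ratio of 1.27 (0.986 to 1.65).

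**Figure D5:**
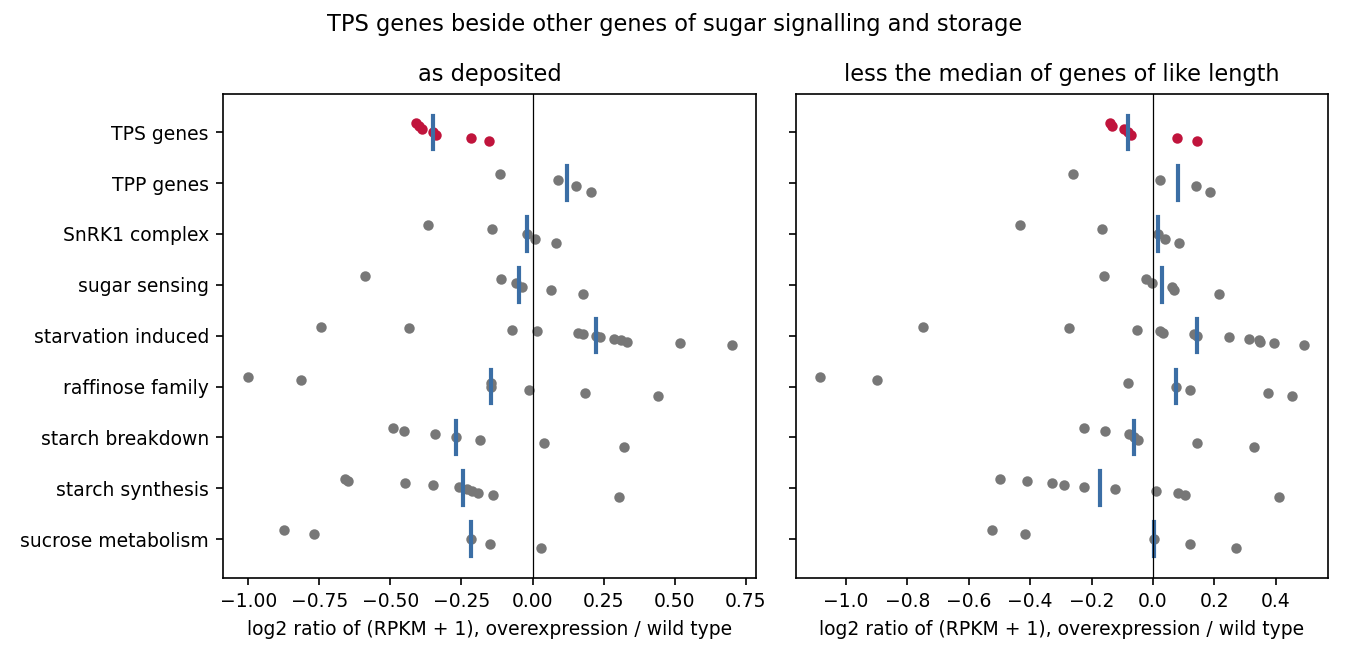
The log2 ratio of (RPKM + 1), overexpression over wild type, of each expressed gene (points) in 9 gene groups, with the group median as a blue bar, as deposited (left) and less the median of expressed genes of like transcript length (right). The TPS genes (red) have a median of -0.35 at the left and -0.08 at the right, and the starvation-induced genes 0.22 and 0.14.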

How the data were processed

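Random-primed cDNA from whole seedlings, with RNA extracted by Trizol per the labels' protocols, was sequenced as 1 library per genotype. Raw counts and RPKM values for each transcript model were deposited by the authors, with a log2 ratio of the RPKM columns, and p-values with FDR from a test that is not named. The deposited RPKM values write a count of 0 as 0.01, set to 0 here. Reads were placed on TAIR 10 (submitters' processing notes). The aligner, the counting program and the strand setting are not stated in those notes or the labels. Positions, GC content and sequences came from RefSeq's TAIR 10.1 annotation, in which 18.0% of the 23748 models shared by number had the length given in the deposited table.

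Counts and RPKM were summed per locus. Expressed nuclear genes had a mean RPKM of 1 or more. The log2 ratio used a pseudocount of 1 RPKM, which understates differences of low genes. Each count ratio, scaled to library totals, has an exact 95% interval (conditional binomial), for counting error alone. Length adjustment subtracted the median of 50 bins of transcript length, and GC adjustment then that of 50 bins of GC content. Up to 4 genes per list with the largest log2 ratio in size were named, and those with 0 counts in 1 library. The members and lists were chosen with earlier results of these data known. The steps were tested on simulated data. Alternatives were other pseudocounts, scaling with TMM (edgeR 4.0.16), median centring, length and GC adjustment, filters, threshold and transcript model. Python 3.11.15, scipy 1.17.1, pandas 2.3.3 and numpy 2.4.6 were used.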

Additional observations from a re-analysis of the deposited data

How the results depend on the processing

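No paired analysis was possible because only 1 library of either genotype was sequenced. The median log2 ratio of the 7 TPS genes was -0.35 and that of the 6 class II genes among them -0.34. Both moved with the length adjustment, to -0.081 and -0.076, and with the length and GC adjustment, to -0.096 and -0.095. The number of genes with a counting interval wholly below 1 went from 7 to 0 with the length adjustment, and the number wholly above 1 from 0 to 2. The log2 ratio of TPS7 turned to 0.14 with either adjustment and that of TPS10 to 0.080. Pseudocounts of 0.1 and 5 RPKM, TMM scaling, median centring, the transcript model with the most reads and other level filters left the median between -0.38 and -0.30, and none of the 7 genes was 2-fold apart under any of these settings or the length adjustments. With the settings of the report none was 1.5-fold apart either, a threshold not tried with the others. Of the values of the 10 single genes, 58 moved by less than their counting error, 8 by more, and 4 (TPS7 and TPS10) turned beyond it. Sign changes within counting error also occurred in TPS6 (to 0.0093 and 0.019 with the length adjustments), DIN10 (to 0.21 and 0.24) and SEN1 (to -0.24, -0.23 and, with median centring, -0.010). TPS6 was at -0.84 with the pseudocount of 0.1 RPKM. Depth limits TPS6, SEN1 and DIN10, with 13, 2 and 5 counts over both libraries.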

Other observations

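Leaf senescence genes, which share induction with SEN1, had 5 of 9 listed members over the level filter. SAG21 had 256 counts in wild type against 406 in the overexpression library, a ratio of 1.64 (1.40 to 1.93). It was the only one of the 5 with an interval that did not span 1. Its log2 ratio of 0.70 became 0.39 with the length median subtracted, and its adjusted interval was 1.11 to 1.53. The 5 genes had a median log2 ratio of 0.16, or 0.0017 adjusted. Of all expressed genes 18.7% had an interval wholly above 1 and 15.6% wholly below, and 10.9% and 12.5% adjusted. SAG21 is numbered up to model 2, in the class of loci with few counts. The chlorophyll breakdown genes NYE1 and PAO had ratios of 0.736 (0.532 to 1.01) and 0.762 (0.578 to 1.00), and ORE1, a senescence regulator, had 15 and 21 counts. Below the filter, and chosen after their values were seen, the senescence regulator WRKY53 had 5 and 13 counts, and DIN11, of the starvation-induced group, had 2 and 11.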
